A study of Mus musculus with 8 samples.

Results

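The genes described here encode the contents, the membrane and the release machinery of secretory granules, the stores from which endocrine cells and neurons release peptides on demand. The rule that chose them names genes by role and uses no measured value, though it was written with earlier results of these data known. All 48 of them had at least 1 probe on the array. Of these, 42 were bright enough to be tested, among 23250 genes tested in all. The samples were small intestines of mouse embryos at stage E18.5, in 2 groups of 4. The control group was wild-type (Rfx6+/+). The Rfx6 knockout group was Rfx6-/-, bred from mice with a floxed Rfx6 allele and the CMV-Cre transgene, a deleter line that acts in most tissues and in the germline, followed by an intercross of Rfx6+/- heterozygotes. The loss was therefore not limited to the gut or to endocrine cells. Total RNA of the whole organ was measured, so the granule genes were read in enteroendocrine cells, enteric neurons and any other secretory cell of the organ at once. In such bulk samples, fewer cells of a type and less RNA per cell cannot be told apart. Sex, litter and strain background were not given in the sources used here, nor whether each sample was 1 embryo, so the p-values measure the spread between these 8 samples.

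Rfx6 is a transcription factor of the regulatory factor X family, needed for enteroendocrine and pancreatic islet cells that make peptide hormones. Peptide hormones are made as precursors, sorted into dense-core granules together with granins, cut by prohormone convertases and trimmed by carboxypeptidase E. The granule is then tethered by Rab proteins and their effectors, primed, and fused with the plasma membrane by SNARE proteins when a synaptotagmin senses calcium. The same machinery serves neurons, and parts of it serve exocrine, goblet and gastric cells.

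Levels are log2 of the processed signal relative to the 75th percentile of the array, and differences are knockout minus control on that log2 scale. A probe responds in its own way, so levels are compared between arrays for 1 gene and not between genes. A probe is called detected on an array where the scanner software marked it as well above background, which held for 57.6% to 67.2% of probes. The share was 62.8%, 58.0%, 63.6% and 57.8% on control arrays 1 to 4. It was 57.6%, 63.7%, 64.5% and 67.2% on knockout arrays 1 to 4, so counts of detected arrays carry this difference between arrays. The Rfx6 probe lay between -3.74 and -2.91 on control arrays and between -3.37 and -2.25 on knockout arrays, a difference of 0.38 ± 0.29 (SE; limma adjusted p 0.504). It was detected on 8 of 8 arrays, so it does not check the group labels. Of 10 small intestine epithelium markers, all 10 were detected. Their mean level was 6.20 to 6.51 on control and 6.02 to 6.24 on knockout arrays, with 4 of 10 lower past the threshold. Of 10 enteroendocrine hormone genes, 8 were lower. Their mean level was 2.17 to 2.50 on control and -2.59 to -2.28 on knockout arrays. Gip and Gcg were detected on 0 of 4 knockout arrays and Sst on 1, so the knockout mean includes values at background. Pyy, 1 of the 2 that did not pass, stood at 1.41 on knockout array 1, above its control range of 0.35 to 1.38, while knockout arrays 2 to 4 gave -2.78 to -2.56.

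Most of the granule and exocytosis genes did not pass the test. Of the 42 tested, 2 were lower on the knockout arrays, Scg2 and Syp, and 4 were higher, Rab27a, Rab27b, Rab3d and Sytl4 (limma, adjusted p under 0.05). The other 36 did not pass. The 2 lower genes were 4.76% of the members tested, against 2.59% of all genes, and the 4 higher genes were 9.52%, against 2.32% of all genes. All 4 of the higher members belonged to the group that tethers granules through Rab proteins. At an unadjusted limma p under 0.05 there were 11 of the 42 members, and 4763 of the 23250 genes tested. The unadjusted counts by role and list below stand beside that share of all genes. The median difference of the 42 members was 0.05, and that of all genes tested was -0.05. The values of the groups did not overlap for 5 members that were lower and for 4 that were higher, where 9.26% of all genes were lower and 5.41% were higher without overlap. Among all genes 602 were lower and 540 higher, and with the arrays centred on their medians 252 were lower and 541 higher. The 6 member calls were made under that centring too.

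**Figure D1:**
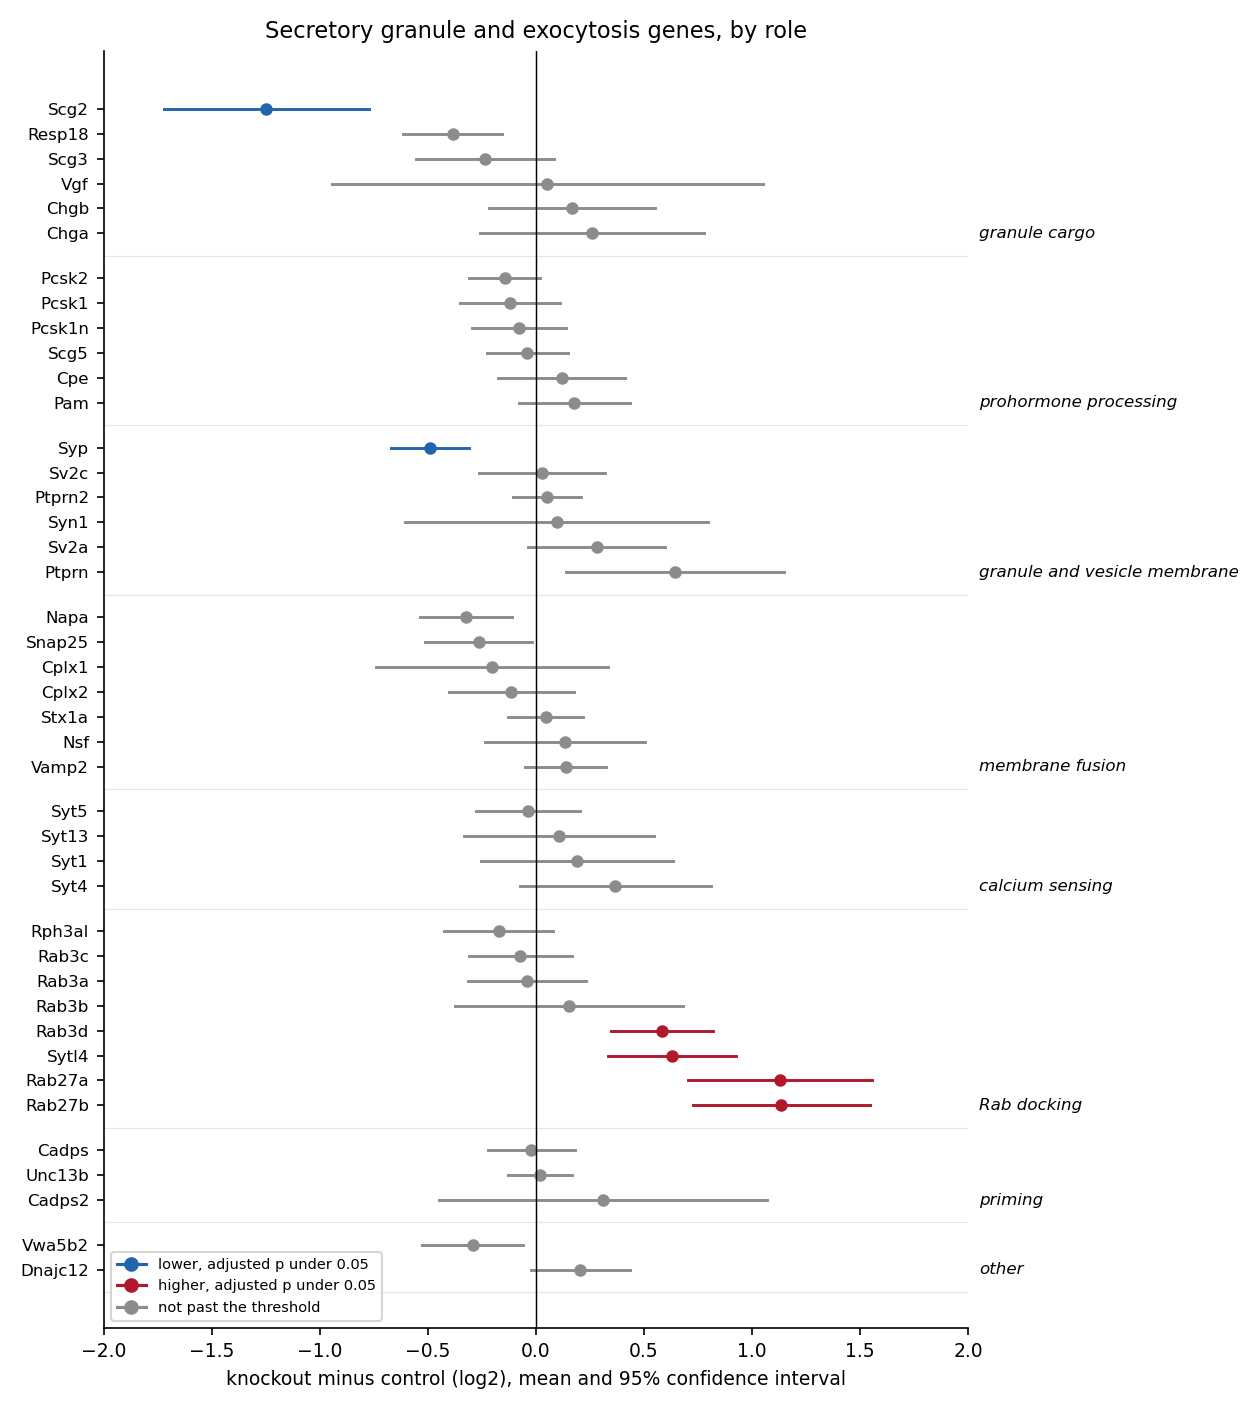
The difference between knockout and control arrays (log2) is plotted for each of the 42 tested members, grouped by role, as a point with its 95% confidence interval from limma. Scg2 and Syp lie left of 0, Rab27a, Rab27b, Sytl4 and Rab3d lie right of it, and most of the other points lie close to 0.

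For the members that did not pass, the intervals limit how large a difference could have been missed. The 95% interval lay between -1 and 1 for 33 of the 36. The widest reached -0.94 and 1.15, for Vgf and Ptprn. A change of 2-fold or more in the signal of the probe used was thus outside the interval for most members. Some of these probes, as for Cplx2, Snap25, Rab3c and Pam, hold repeats or runs shared with probes of other genes, as given below. For them the interval bounds the probe signal, which was not shown to come from the named gene alone. How small a change could be seen differed between genes, as their intervals below show.

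Among the granins and other granule cargo, 6 of 6 genes were tested and 1, Scg2, fell. Scg2 encodes secretogranin II, a granin that is cut to secretoneurin. Its level was 1.08, 0.52, 1.17 and 0.95 on control arrays 1 to 4 and -0.13, -0.03, -0.22 and -0.89 on knockout arrays 1 to 4. Every knockout value lay below every control value, and the lowest of all was on knockout array 4. The group means were 0.93 ± 0.29 (SD, n = 4) and -0.32 ± 0.39 (SD, n = 4). The difference was -1.25 ± 0.21 (SE), or 2.37-fold (95% interval -1.72 to -0.77, limma adjusted p 0.0117, exact permutation p 0.0286, the smallest that 4 against 4 arrays allow). Row 1 of the slide held control array 1 and knockout arrays 2, 3 and 4, and row 2 the others. The difference was -1.45 within slide row 1 and -1.02 within row 2. Within-row differences, here and below, rest on 1 array of 1 group, control array 1 in row 1 and knockout array 1 in row 2. The probe lies at chr1:79431323-79431382 on mm9.

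The chromogranins, acidic proteins that help form the granule core and serve as the usual markers of neuroendocrine cells, showed no such fall. Chgb was at 5.14, 4.35, 5.10 and 4.92 on the control arrays and at 5.03, 4.94, 5.22 and 4.996 on the knockout arrays. Chga was at 3.23, 2.34, 3.46 and 3.32 on the control arrays and at 3.42, 3.25, 3.54 and 3.18 on the knockout arrays. For both genes control array 2 was the lowest and the groups overlapped. The Chgb difference was 0.17 (95% interval -0.22 to 0.55, adjusted p 0.616). The Chga difference was 0.26 (95% interval -0.26 to 0.78, adjusted p 0.561), so a fall of the size seen for Scg2 lay outside both intervals. Whether Scg2 differed from them in response was not tested.

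Resp18, a granule protein of endocrine and neuroendocrine cells, did not pass, at -0.38 ± 0.10 (SE; limma adjusted p 0.070). Its control arrays lay between -1.48 and -1.11 and its knockout arrays between -1.77 and -1.54, without overlap. Without control array 2, and with array weights, Resp18 passed. Scg3, a granin that binds chromogranin A at the granule membrane, differed by -0.23 (adjusted p 0.391) with overlapping groups. Vgf, a precursor of neuropeptides, differed by 0.05 ± 0.44 (SE). Its arrays spread widely in both groups, from -2.19 to -0.31 on control and from -1.81 to -0.48 on knockout arrays.

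**Figure D2:**
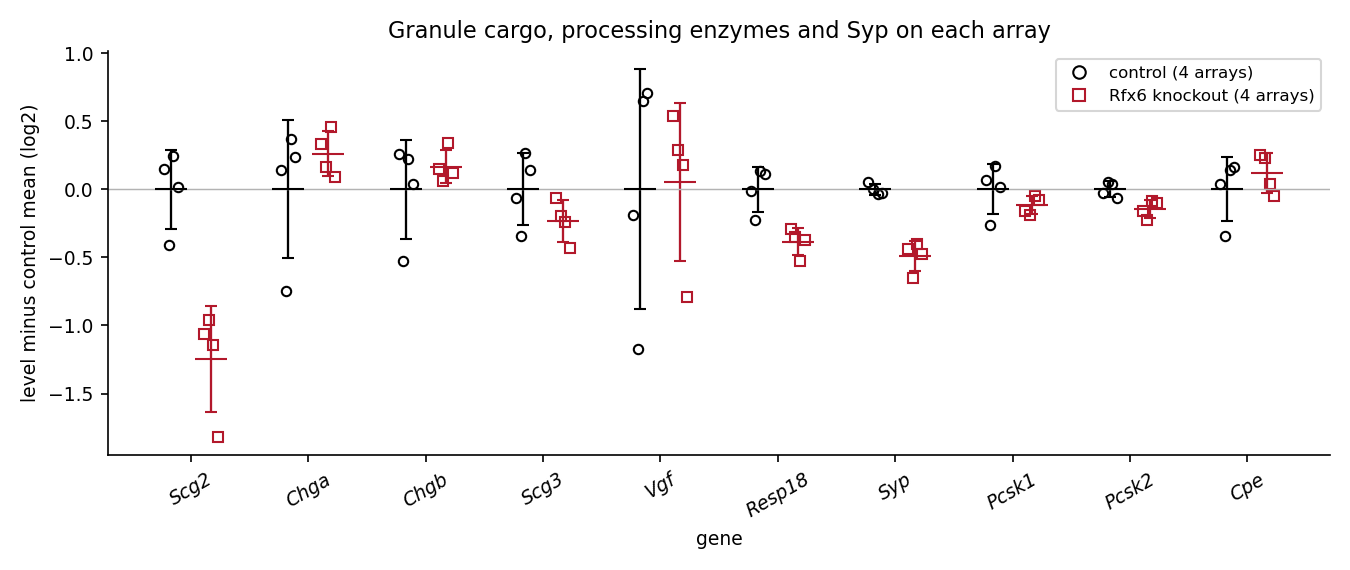
Levels on each array, minus the mean of the control arrays (log2), are plotted for 10 cargo, processing and vesicle membrane genes, with circles for the 4 control and squares for the 4 knockout arrays. Horizontal bars are group means and vertical bars the SD. The knockout arrays of Scg2 and Syp lie below all control arrays, and control array 2 is the low circle of Chga, Chgb and Vgf.

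The promoters of the members were searched for a short list of motifs. Those of Scg2, which fell, and of Chgb and Pcsk1, which did not pass, are printed as examples that hold the same motif at similar distances from their start sites. It is TGACGTCA, the cyclic AMP response element, an 8-base palindrome known as a binding site of CREB. The windows come from RefSeq on GRCm38.p6, another build than the probe coordinates. Each line below runs 5′ to 3′ along the gene, from 120 bases before its start to 2 after it. Capitals mark TGACGTCA and, in Scg2, GGTGCTGAA, which is TTCAGCACC on the opposite strand, the left arm of the RE1 element bound by the neuronal repressor REST. The windows are chr1:79440025-79440146 on the minus strand for Scg2, chr2:132781522-132781643 on the plus strand for Chgb and chr13:75089737-75089858 on the plus strand for Pcsk1.
Scg2: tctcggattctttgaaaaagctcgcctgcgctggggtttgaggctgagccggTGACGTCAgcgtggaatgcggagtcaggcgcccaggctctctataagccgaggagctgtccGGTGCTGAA
Chgb: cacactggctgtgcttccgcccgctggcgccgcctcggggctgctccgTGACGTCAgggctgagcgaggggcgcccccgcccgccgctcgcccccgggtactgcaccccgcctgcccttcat
Pcsk1: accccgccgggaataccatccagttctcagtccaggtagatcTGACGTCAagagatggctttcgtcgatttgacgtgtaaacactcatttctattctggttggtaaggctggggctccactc

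TGACGTCA lay at bases -68 to -61 in Scg2, -72 to -65 in Chgb and -78 to -71 in Pcsk1. In the members not printed it lay at -7 to 1 in Napa, across the start site, and at -159 to -152 in Syn1. The windows, of 250 bases before and 50 after a start, were found for 37 of the 48 members, which had 46 windows. TGACGTCA was in 5 of the 46, those of Chgb, Napa, Pcsk1, Scg2 and Syn1, and in 1.79% of all 32851 windows. TTCAGCACC was in 4, those of Ptprn2, Scg2, Syn1 and Unc13a, and in 0.371% of all. The X-box of regulatory factor X proteins, searched as GTTNCC and GGNAAC separated by 0 to 3 bases, was in 0 of the 46 and in 0.804% of all. Its left arm GTTGCC alone was in 5, those of Pcsk1n, Ptprn, Rph3al, Scgn and Syt1, and in 12.5% of all. CAGATG, an E-box bound by Neurod1, was in 1, that of Cadps, and in 17.2% of all. Both strands were searched throughout. The shares are given as a description, with no test, and a match describes letters in these windows and no more.

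Of the 6 genes for processing of prohormones, 6 were tested and 0 passed (limma), with 0 at an unadjusted p under 0.05. Cpe encodes carboxypeptidase E, which removes the basic residues left by the convertases. Its control arrays were at 4.37, 3.98, 4.46 and 4.49 and its knockout arrays at 4.58, 4.56, 4.37 and 4.27, with overlap and control array 2 lowest. The difference was 0.12 (95% interval -0.18 to 0.41, adjusted p 0.642), and its 3 probes gave 0.12, 0.17 and 0.21. The probe used shares runs of 16 bases with probes of 3 other gene names. Pcsk1 and Pcsk2 encode the prohormone convertases PC1/3 and PC2, which cut the precursors. Pcsk1 differed by -0.12 (95% interval -0.35 to 0.11, adjusted p 0.554). Pcsk2 differed by -0.14 ± 0.07 (SE), and its groups did not overlap, with control arrays from -1.05 to -0.93 and knockout arrays from -1.21 to -1.07 (adjusted p 0.300). Pcsk1n, which encodes an inhibitor of PC1/3, differed by -0.08. Scg5, which encodes the PC2 chaperone 7B2, differed by -0.04. Pam, which amidates the ends of peptides, differed by 0.18. Its probe shares runs of 16 bases with probes of 10 other gene names.

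Of the 7 genes for granule and vesicle membrane proteins, 6 were tested and 1, Syp, fell. Syp encodes synaptophysin, a membrane protein of small synaptic-like vesicles and a common marker of neuroendocrine cells and nerve terminals. It was at 3.02, 2.97, 2.93 and 2.94 on the control arrays and at 2.53, 2.31, 2.56 and 2.49 on the knockout arrays. The control values lay close together, and every knockout value lay below them. The difference was -0.49 ± 0.08 (SE), or 1.41-fold (limma adjusted p 0.0098, exact permutation p 0.0286). Within slide rows 1 and 2 it was -0.57 and -0.42. The probe lies at chrX:7230297-7230356 on mm9.

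The other membrane genes did not pass. Ptprn encodes IA-2, a transmembrane protein of the dense-core granule. It was at -4.50, -4.65, -3.67 and -3.81 on the control arrays and at -3.40, -3.54, -3.36 and -3.76 on the knockout arrays. The difference was 0.64 ± 0.22 (SE; adjusted p 0.148), the groups overlapped, and 3 of the 4 control arrays detected the probe. Ptprn2, which encodes the related protein phogrin, differed by 0.05. The vesicle glycoproteins Sv2a and Sv2c differed by 0.28 and 0.03. Syn1, which encodes synapsin I and holds vesicles in the reserve pool of nerve terminals, differed by 0.10. Its lowest values were -2.68 on control array 2 and -2.57 on knockout array 4. Sv2b was not tested, being detected on 0 control arrays and 1 knockout array.

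Of the 7 genes for membrane fusion, 7 were tested and 0 passed, with 2 at an unadjusted limma p under 0.05, Napa and Snap25. Among all 23250 genes tested, 4763 were under that value. Napa encodes alpha-SNAP, which with the ATPase Nsf takes spent SNARE complexes apart. It was at 4.73, 4.38, 4.55 and 4.56 on control and at 4.27, 4.10, 4.31 and 4.25 on knockout arrays, without overlap. Its difference was -0.32 ± 0.09 (SE; limma adjusted p 0.090), and its other probe gave -0.34. Napa passed without control array 2 and with array weights. Nsf differed by 0.14. The SNARE genes Vamp2 and Stx1a, for the vesicle and the plasma membrane partner, differed by 0.14 and 0.05. Cplx1, which encodes complexin 1, a clamp on the SNARE complex, differed by -0.20.

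Some values rest on probes whose sequences are repeats or hold runs shared with probes of other genes, and those of 3 genes are printed to show it. The first 30 bases of each 60-base probe are given. Capitals mark AGG triplets in Cplx2, and in Snap25 and Rab3c the 16-base run found in probes of the most other gene names, as the file names them. Runs on either strand were counted, and 11 of the 48 probes used shared at least 1.
Cplx2, probe used: AGGAGGAGGAGGAGGAGGAGGAGGAGGAGG
Cplx2, other probe: tccccactttgtatgatgcaaatgctaaga
Snap25, probe used: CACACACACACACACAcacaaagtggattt
Rab3c, probe used: atgtTCTACAGAGTGAGTTCtaggatagca

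The brightest Cplx2 probe was all A and G. It held 12 distinct 6-base words of 55 possible, where the other members' probes held 38 to 55, and it shared runs of 16 bases with probes of 25 other gene names. The file places it at chr13:108816800-108816859 on mm9 and the non-repeat probe at chr13:54485200-54485259. Its level was 6.34, 6.35, 6.43 and 6.49 on control and 5.93, 6.55, 6.33 and 6.35 on knockout arrays, a difference of -0.11 (adjusted p 0.646). The non-repeat probe differed by 0.15. The remaining Cplx2 probes of 5, also all A and G, differed by 0.11, -0.10 and -0.07. The sign for complexin 2 thus depends on the probe, also among the repeat probes. The Snap25 probe begins with a CA repeat and shares runs with probes of 114 other gene names. Snap25 encodes the plasma membrane SNARE SNAP-25. Its level was 5.23, 5.30, 5.17 and 4.99 on control and 4.84, 4.77, 4.86 and 5.16 on knockout arrays, where knockout array 4 lay within the control range. The difference was -0.26 ± 0.11 (SE; adjusted p 0.219). How much of these signals comes from other transcripts was not tested.

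Of the 7 genes grouped under calcium sensing, 4 were tested and 0 passed, with 0 at an unadjusted p under 0.05 (limma). Syt13 encodes a synaptotagmin of endocrine cells that lacks calcium binding. It was at 0.43, 0.15, 0.85 and 0.67 on control and at 0.60, 0.99, 0.73 and 0.21 on knockout arrays, with overlap. The difference was 0.11 (95% interval -0.33 to 0.55). Syt1, the fast calcium sensor of neuronal release, differed by 0.19, and Syt5 by -0.04. Syt4, a synaptotagmin found on dense-core granules, differed by 0.37 (95% interval -0.07 to 0.81), detected on 2 of 4 control arrays. Syt7, the slow calcium sensor of granule release, was detected on 1 array of each group, Syt14 on 0, and Scgn, which encodes the calcium-binding protein secretagogin, on 3 of each group. These 3 were not tested.

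The Rab proteins and their effectors held all of the rises. Of the 9 genes, 8 were tested, 4 rose and 0 fell past the threshold, where 2.32% of all genes rose and 2.59% fell. Rab27a and Rab27b encode the related small GTPases that bring secretory granules and lysosome-related organelles to the plasma membrane. Rab27a was at -1.75, -1.75, -1.91 and -1.95 on control and at -0.38, -0.82, -1.25 and -0.38 on knockout arrays. Rab27b was at 0.27, 0.35, 0.22 and 0.11 on control and at 1.64, 1.03, 1.04 and 1.79 on knockout arrays. For both genes the groups did not overlap, the control arrays were close together, and knockout arrays 1 and 4 were the highest. The Rab27a difference was 1.13 ± 0.19 (SE), or 2.19-fold (limma adjusted p 0.0112, exact permutation p 0.0286). The Rab27b difference was 1.14 ± 0.18 (SE), or 2.20-fold (limma adjusted p 0.0089, exact permutation p 0.0286).

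The Rab27b probe, at chr18:70143485-70143544 on mm9, shares 16-base runs with probes of 20 other gene names. A further Rab27b probe shares none, and it gave 1.23 (adjusted p over all probes 0.0051). Rab27a has 1 probe, at chr9:72944668-72944727, which shares a run with a probe of 1 other gene name. Rab27a passed the threshold under all 20 of the alternative settings. Within slide rows 1 and 2 the Rab27a difference was 0.93 and 1.49, and the Rab27b difference 1.01 and 1.42.

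Rab3d, a Rab3 isoform known from zymogen and other large secretory granules, was at 1.56, 1.13, 1.30 and 1.37 on control and at 2.04, 1.82, 1.88 and 1.95 on knockout arrays. The groups did not overlap. The difference was 0.58 ± 0.10 (SE), or 1.50-fold (limma adjusted p 0.0149), and its other probe gave 0.75. Rab3d missed the threshold without knockout array 1, with slide row as a block and without the filter on dim probes. It was 0.33 within slide row 1 and 0.77 within row 2. Its probe lies at chr9:21713734-21713793 on mm9.

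Sytl4 encodes granuphilin, which binds Rab27 and docks granules. It was at -2.04, -1.94, -1.64 and -1.90 on control and at -1.33, -1.18, -1.51 and -0.98 on knockout arrays. The groups did not overlap, though control array 3 and knockout array 3 lay close together. The difference was 0.63 ± 0.13 (SE), or 1.55-fold (limma adjusted p 0.030). Its other probe gave 0.06 (adjusted p over all probes 0.851), and the call was lost under 10 of the 20 alternative settings, among them slide row as a block and leaving out control array 1, 2 or 4 or knockout array 1, 2 or 4. It was 0.81 within slide row 1 and 0.49 within row 2. The probe used lies at chrX:130470950-130471009 on mm9.

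The Rab3 isoforms of neurons and endocrine cells did not pass. Rab3a differed by -0.04 (95% interval -0.31 to 0.23) and Rab3b by 0.15 (95% interval -0.37 to 0.68). Rab3c was at 6.50, 6.62, 6.39 and 6.26 on control and at 6.25, 6.38, 6.30 and 6.55 on knockout arrays, a difference of -0.07. Its 3 probes gave -0.07, -0.08 and 0.34, and only the last shares no run with a probe of another gene name. Rph3al, which encodes Noc2, an effector of Rab3 and Rab27, differed by -0.17 (adjusted p 0.425). Rims2, which links Rab3 to calcium channels, was detected on 2 control and 3 knockout arrays and was not tested.

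Other Rab27 effectors, from a list of further secretory pathway genes, were read in the same fit. Sytl2 was at -0.83, -0.82, -0.78 and -1.10 on control and at 0.55, 0.02, -0.08 and 0.65 on knockout arrays, a difference of 1.17 (limma adjusted p 0.0072). Sytl1 was at -0.43, -0.52, -0.75 and -0.86 on control and at 0.50, 0.45, -0.19 and 0.41 on knockout arrays, a difference of 0.93 (adjusted p 0.0164). Sytl3 went the other way, at 2.39, 2.20, 2.26 and 2.08 on control and 1.67, 1.69, 1.81 and 1.69 on knockout arrays, a difference of -0.52 (adjusted p 0.0115). Sytl1, Sytl2 and Sytl3 encode synaptotagmin-like proteins of the granuphilin family. Unc13d, which encodes the Rab27 effector Munc13-4 of leukocytes, differed by 0.52 and did not pass (adjusted p 0.066). Myrip, which ties Rab27 to myosin, differed by 0.03, and Sytl5 was not tested.

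**Figure D3:**
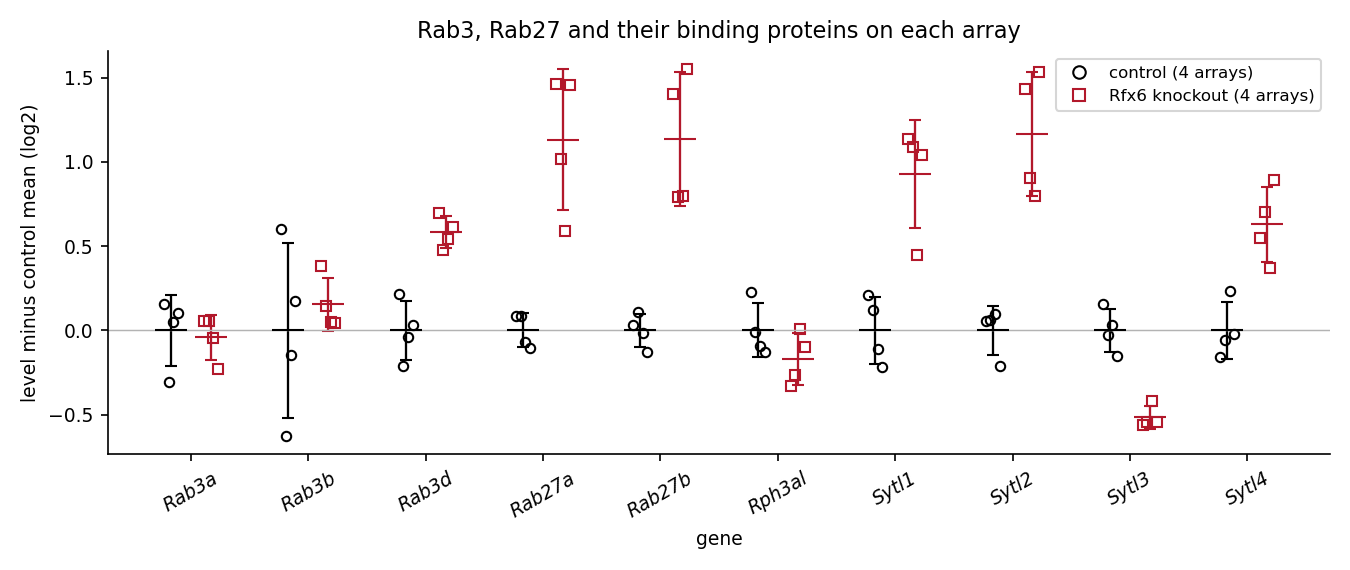
Levels on each array, minus the mean of the control arrays (log2), are plotted for 10 genes of Rab3, Rab27 and their binding proteins, with circles for the 4 control and squares for the 4 knockout arrays. Horizontal bars are group means and vertical bars the SD. The knockout squares lie above all control circles for Rab27a, Rab27b, Rab3d, Sytl1, Sytl2 and Sytl4, below them for Sytl3, and among them for Rab3a, Rab3b and Rph3al.

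Genes of other epithelia moved between the groups as well, and their values stand beside the Rab results. Of 13 stomach epithelium markers tested, 10 were higher past the threshold. Their mean level was -5.20, -4.71, -4.62 and -3.71 on control and 1.84, 1.08, 1.17 and 1.38 on knockout arrays. On control arrays 5 of the 13, Gkn2, Atp4a, Cblif, Vsig1 and Cldn18, were detected on 0 of 4 arrays. Knockout arrays 1 and 4, highest for Rab27a, Rab27b and Sytl2, were also the highest for this list. The order was not the same for every gene. Sytl4 was highest on knockout arrays 4 and 2 and Sytl1 on 1 and 2, and in the stomach list Atp4a, Atp4b, Cblif and Pgc were lowest of the knockout arrays on array 4. Of 7 goblet cell markers, Spdef was higher and Zg16 lower, and the mean level was 4.36 to 5.10 on control and 4.85 to 5.03 on knockout arrays. Of 13 exocrine pancreas markers 0 passed (limma), with 4 at an unadjusted p under 0.05, and the mean level was -0.10 to 1.32 on control and -0.76 to 0.77 on knockout arrays, highest on knockout array 1. Without that array 2 members were higher, Rab27a and Rab27b, and 336 of all genes were higher, against 540 with every array. The Sytl4 call was also lost without other single arrays, as given above. The part of stomach, goblet or pancreatic cells in the rises of the Rab genes was not tested.

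Of the 4 genes for priming, which readies a docked granule for fusion, 3 were tested and 0 passed (limma), with 0 at an unadjusted p under 0.05. Unc13b, which encodes Munc13-2, was at 1.87, 1.89, 1.86 and 1.88 on control and at 1.91, 1.88, 1.84 and 1.94 on knockout arrays, a difference of 0.02 (95% interval -0.13 to 0.17). The priming factors Cadps and Cadps2 differed by -0.02 and 0.31. A further Cadps2 probe, detected on 0 of 4 control arrays, gave 1.13 (adjusted p over all probes 0.063). Unc13a, which encodes Munc13-1 of nerve terminals, was detected on 1 array of each group and was not tested. Of the remaining 2 genes, both tested, Vwa5b2 differed by -0.29 (adjusted p 0.154). Dnajc12, which encodes a co-chaperone of the aromatic amino acid hydroxylases that make serotonin and catecholamines, was at -0.62, -0.27, -0.58 and -0.60 on control and at -0.30, -0.43, -0.30 and -0.22 on knockout arrays, a difference of 0.21 (adjusted p 0.288).

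Of 72 further genes of the secretory pathway, 58 were tested, 2 were lower and 5 higher, with a median of -0.03. The lower genes were 3.45% of those tested, against 4.76% of the members and 2.59% of all genes. The higher genes were 8.62%, against 9.52% of the members and 2.32% of all genes. Beside Sytl3, the lower gene was Pcsk4, a convertase known from germ cells, at -0.54 (limma adjusted p 0.0138). Neither passed with the arrays centred on their medians. Beside Sytl1 and Sytl2, the higher genes were Syt16, Slc17a9 and Ica1. Syt16, an atypical synaptotagmin, was detected on 0 of 4 control and 4 of 4 knockout arrays, and was at least 6.61-fold higher. The bound compares the knockout mean with the lowest signal counted as above background on the control arrays, or the probe's own signal where that was higher. Slc17a9, the vesicular nucleotide transporter that loads ATP into granules, differed by 0.61 (adjusted p 0.0076). Ica1, which encodes an islet autoantigen that acts in granule budding, differed by 0.60 (adjusted p 0.0335).

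Enteric neurons are known to use many of the granule and exocytosis genes, so their markers were read beside them. Of 20 neuronal markers tested, 1, the creatine kinase gene Ckb, was lower, at -0.66, and 0 were higher. Their mean level was 0.19, -0.12, 0.29 and 0.27 on control and 0.21, 0.32, 0.14 and 0.08 on knockout arrays, with overlap. Control array 2 was lowest of its group for 16 of the 20 neuronal genes, for 26 of the 42 members and for 36.5% of all genes. Knockout array 4 was lowest of its group for 11 of the 20, for 17 of the 42 members and for 26.5% of all genes. What share of the member signal comes from neurons was not tested. Of 7 markers of serotonin-producing enterochromaffin cells, Trpa1 was lower and Tac1 and Lmx1a higher, and the mean level was -0.35 to -0.03 on control and 0.00 to 0.11 on knockout arrays.

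Markers of pancreatic islets, another granule-bearing tissue, fell in part, in the direction of Scg2 and Syp. Of 6 tested, 3 were lower past the threshold (limma), Iapp at -3.39, Ins1 at -2.27 and Ins2 at -0.78. The mean level of the 6 was -0.22 to 0.22 on control and -1.40 to -1.18 on knockout arrays. The part of islet cells in the falls of Scg2 and Syp was not tested.

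**Figure D4:**
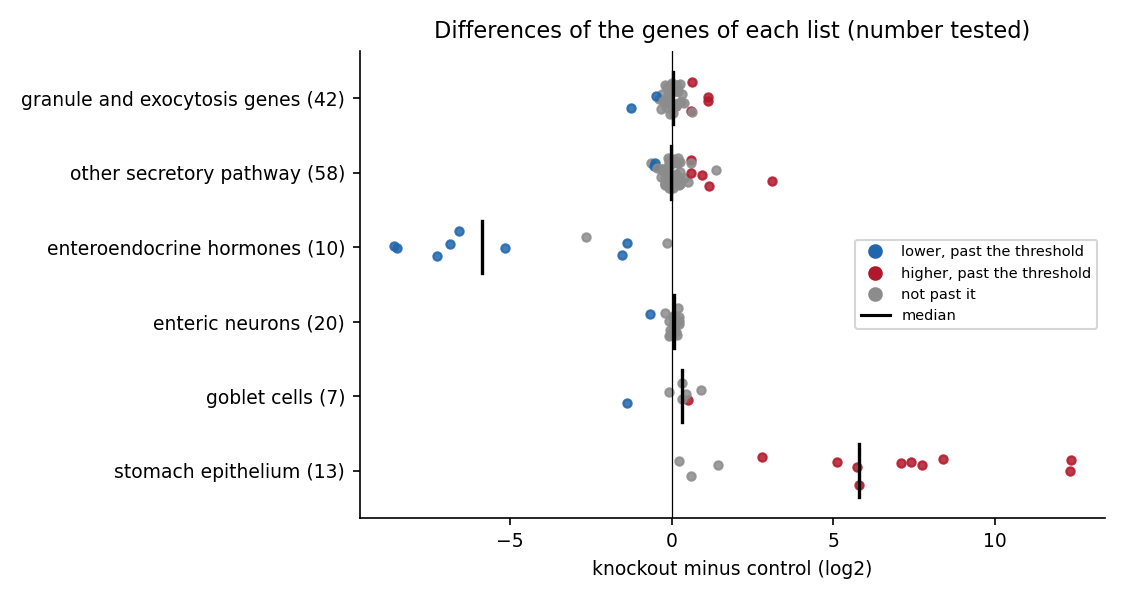
The difference between knockout and control arrays (log2) is plotted for each tested gene of 6 lists, with the number tested in parentheses and a bar at the median. Most of the 42 granule and exocytosis genes and of the 20 neuronal genes lie close to 0, most hormone genes lie far below 0, and most stomach genes lie far above it.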

How the data were processed

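Each of the 8 samples was 1 single-colour Agilent array. Per the labels' protocols, RNA was amplified and labelled with cyanine 3. Per the file headers, 1 slide with 2 rows, scanned once, held every array, and the grid was built on mm9. The submitters' processing notes name Agilent Feature Extraction 10.10.1.1. The deposited scanner files hold an intensity for each spot, and the processed intensity used here had background subtracted by the authors' software, per the file headers. Among the deposited files, the authors' series matrix holds a further intensity per spot and was used as an alternative.

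Of 62976 spots, 3671 control spots and 153 to 355 outlier spots per array were left out, and no spot was saturated. Spots of a probe were averaged (55681 probes), and log2 values were set relative to the 75th percentile of the array, 636 to 741 intensity units. The probe with the highest mean intensity stood for a gene, and was tested if marked well above background by the software on all 4 arrays of either group. Of the probes, 26320 had a current symbol, 2864 were named through RefSeq accessions and 492 through synonyms, by a GRCm38 table, and 26005 kept the file's name. Groups were compared with limma 3.58.1 (lmFit, eBayes, two-sided, R 4.3.3), with Benjamini-Hochberg adjustment over all 23250 genes and a threshold of 0.05. The number of arrays limits the precision. The fit was tested on simulated data.

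Values on every array are given for members past the threshold, with a difference of 1 or more, or brightest in their role, and for some others chosen after their values were seen. The members, lists and rules were chosen with earlier results of these data known. The 20 alternatives changed background correction, scaling, filter, probes, source of values, blocks, weights, variance prior or left out 1 array.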

Additional observations from a re-analysis of the deposited data

Results flagged for a closer look

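Among 84 groups of 4 values, those of the 42 tested members, 2.38%, or 2, had 1 value standing apart. By chance about 1 in 20 groups would, which here is 4.2. Nsf was low on control array 2, at 1.50 where the other control arrays lay between 2.07 and 2.10. Dnajc12 was high on control array 2, at -0.27 where the others lay between -0.62 and -0.58.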

How the results depend on the processing

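Of 838 differences of members under the alternatives, 780 kept their direction and side of the threshold. Of the 6 called members, Rab27a kept its call under all 20 alternatives, and the others lost it under at least 1. Scg2, Syp and Rab27b lost it only with the replicate number as a block, Rab3d under 3 settings and Sytl4 under 10. With the replicate number as a block, 0 members were lower and 2, Rab3d and Rab27a, were higher, with 148 lower and 266 higher among all genes and 0 lower and 2 higher among the other secretory pathway genes. Under that block the adjusted p was 0.054 for Scg2, 0.082 for Syp and 0.052 for Rab27b. Same-numbered samples did not deviate together (correlations -0.07, -0.17, 0.07 and -0.41), and were not treated as pairs. Without the filter on dim probes, 2 members were higher, all genes gave 201 lower and 297 higher of 36083, and the other pathway genes 1 lower and 3 higher. Median centring gave 252 lower among all genes and 0 lower among the other pathway genes. Slide row as a block left 2 members higher, Rab27a and Rab27b. Array weights gave 4 members lower, adding Resp18 and Napa, and 1266 lower and 825 higher among all genes. The causes were not tested. Without 1 array there were 2 to 4 members lower, with 4 without control array 2, and 2 to 4 higher, with 2 without knockout array 1. It gave 216 to 583 lower and 336 to 497 higher among all genes, 0 to 2 lower and 3 to 6 higher among the other pathway genes, and a median member difference of -0.02 to 0.08. The count of lower genes fell by more than 1.5 times without control array 1 (249), 3 (312) or 4 (341) or knockout array 1 (216) or 2 (230), and that of higher genes without control array 1 (351) or knockout array 1 (336) or 2 (343).

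Signs turned only for members that had not passed. Normexp background correction gave -0.043 for Sv2c and -0.0026 for Ptprn2. Quantile normalization gave 0.044 for Cplx2, 0.0075 for Rab3a and 0.088 for Rab3c. Median centring gave 0.023 for Rab3a, 0.028 for Syt5, 0.025 for Scg5 and 0.044 for Cadps. The mean of a gene's probes gave 0.065 for Rab3c. The series matrix gave 0.019 for Cplx2, 0.067 for Rab3c and 0.0039 for Cadps. Slide row as a block gave 0.0040 for Cadps. Array weights gave -0.077 for Sv2c, -0.24 for Vgf and -0.026 for Syn1. Leaving out 1 array gave -0.048 to 0.10 for Sv2c, -0.14 to 0.021 for Rab3a, -0.34 to 0.33 for Vgf, -0.0091 to 0.25 for Chgb, -0.010 to 0.24 for Nsf, -0.056 to 0.35 for Rab3b, -0.017 to 0.25 for Syt13, -0.15 to 0.34 for Syn1, -0.12 to 0.032 for Syt5, -0.071 to 0.027 for Cadps and -0.20 to 0.0061 for Cplx2. The slide was not run as a block, since there was 1 slide and 1 scan. Values near background, as for Ptprn, Syt4 and Cadps2, limit what could be seen of the dimmest members.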
